A study of Mus musculus with 7 samples.

Results

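The genes described here are 10 targets of p53 and growth arrest genes, taken by symbol from the count table of cancer-associated fibroblasts (CAFs): Cdkn1a, Mdm2, Ccng1, Phlda3, Zmat3, Trp53inp1, Bax, Sesn2, Eda2r and Cdkn2a. All 10 were among the 12771 genes listed. The CAFs came from orthotopic pancreatic tumors of C57BL/6 J mice, males injected at 8 weeks of age with KPC cells and sacrificed 2 to 3 weeks later. KPC is a mouse pancreatic cancer line that bears mutant Trp53. It carried a lentiviral hairpin against Brca2 (shBrca2, 4 mice) or a non-targeting hairpin (shControl, 3 mice, numbered 1, 2 and 4), and both lines had been selected with puromycin. The hairpin and the mutant Trp53 belong to the injected cells. The sorted cells were taken to be those of the host, for which the labels give no Trp53 allele and no treatment. Whether injected cells were among them was not tested. Live cells without CD45, CD31 and EpCAM and with podoplanin were sorted, and their poly(A) RNA was read at the 3' end with a variant of MARS-seq.

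The transcription factor p53 is held low by the ubiquitin ligase Mdm2 and is stabilized by DNA damage, oncogene activity and other stresses. It then switches on genes that stop the cell cycle, promote repair, adjust metabolism or trigger apoptosis, and it switches on Mdm2 itself, which closes a feedback loop. Cdkn2a stands above this loop: its ARF product binds Mdm2 and frees p53, while its INK4A product blocks CDK4 and CDK6. In fibroblasts this network is best known for the arrest of damaged or senescent cells.

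p53 binds DNA at pairs of a degenerate 10-base unit, the p53 decamer. The 250 bases before each annotated start were searched for it in RefSeq promoters on GRCm38. The pattern was RRRCWWGYYY (R is A or G, W is A or T, Y is C or T), and no mismatch was allowed. It reads the same on both strands, so a single search covered both. Of the 10 members 8 had a window, 10 windows in all, and 4 windows of 4 members held a decamer, where 7.13% of all 32851 windows did. These 4 are shown, 5′ to 3′ in the direction of the gene, because they are the members whose searched window holds a p53 decamer. The capitals mark the exact matches only, and a neighbouring unit with a mismatch stays in lower case.
Cdkn1a, chr17:29090729-29090978, plus strand: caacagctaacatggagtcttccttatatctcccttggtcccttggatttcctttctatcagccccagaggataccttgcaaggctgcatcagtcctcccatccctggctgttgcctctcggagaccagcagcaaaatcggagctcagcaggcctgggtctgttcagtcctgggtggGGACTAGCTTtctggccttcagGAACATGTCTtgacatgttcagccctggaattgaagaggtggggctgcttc
Mdm2, chr10:117710759-117711008, minus strand: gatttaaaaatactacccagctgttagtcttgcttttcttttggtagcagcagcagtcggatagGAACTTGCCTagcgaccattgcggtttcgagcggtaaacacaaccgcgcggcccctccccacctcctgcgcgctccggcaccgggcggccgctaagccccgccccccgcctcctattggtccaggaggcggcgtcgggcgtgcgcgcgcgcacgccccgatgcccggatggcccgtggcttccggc
Ccng1, chr11:40755287-40755536, minus strand: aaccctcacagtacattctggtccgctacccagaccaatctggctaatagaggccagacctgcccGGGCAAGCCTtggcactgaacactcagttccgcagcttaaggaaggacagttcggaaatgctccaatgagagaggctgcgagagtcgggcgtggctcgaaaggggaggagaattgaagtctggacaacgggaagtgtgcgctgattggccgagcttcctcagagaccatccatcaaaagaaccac
Bax, chr7:45466899-45467148, minus strand: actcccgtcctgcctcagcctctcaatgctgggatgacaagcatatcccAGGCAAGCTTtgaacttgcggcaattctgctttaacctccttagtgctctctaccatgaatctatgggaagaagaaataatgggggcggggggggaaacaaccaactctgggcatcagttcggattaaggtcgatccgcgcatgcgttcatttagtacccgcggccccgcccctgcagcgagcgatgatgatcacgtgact

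Cdkn1a was the member with a pair of exact decamers at a spacing of 13 bases or fewer. They were 12 bases apart and began 73 and 51 bases before the upstream of its 2 annotated starts. Units that differ from the pattern in a letter were not counted. Examples are agacctgccc directly before the Ccng1 decamer and tgacatgttc directly after GAACATGTCT of Cdkn1a. Which members hold a pair therefore depends on this strict pattern. A pair was present in 21 windows genome-wide (0.0639%). The window of the downstream Cdkn1a start held none. A match describes letters and does not show binding, and sites further from a start or inside introns were not searched.

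The libraries held 1898679 to 5990579 counts. Brca2, which the hairpin targets in the cancer cells, does not measure the knockdown in host cells. Its raw counts were 5 to 21 per library, and the log2 fold change was -0.03 ± 0.47 (SE; adjusted p by DESeq2 0.97). The labelled cell type was checked against markers. All 10 fibroblast markers were present in every library, among them Pdgfra, Col1a1 and Pdpn, with summed normalized counts of 125620 to 144438 in shControl and 100464 to 120032 in shBrca2. These sums did not overlap between the groups, but a few abundant genes weigh most in them. Col3a1 had means of 54982 in shControl and 40400 in shBrca2 and was not called, and Dcn had 20576 and 12091. Of the 10 log2 fold changes 8 were below 0 and 2 above, with a median of -0.09. Of these 10, Dcn and Lum were called lower. Pdpn, which encodes the podoplanin used in the sort, was not called (log2 fold change -0.25, adjusted p by DESeq2 0.42). Its shBrca2 libraries nevertheless all lay below every control.

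None of the 10 members passed the test between CAFs of shBrca2 and shControl tumors. DESeq2 called 0 higher and 0 lower, where it called 9.04% of all tested genes, 3.77% higher and 5.27% lower. Called means an adjusted p under 0.1 over all genes, an absolute log2 fold change over 0.5 and a mean normalized count over 5. At an unadjusted p under 0.05 the number of members was also 0, against 17.7% of all genes, and edgeR called 0, with 0 under 0.05. The members' normalized counts overlapped between the groups in every case, while 17.1% of all genes had groups that did not overlap. Log2 fold changes, shBrca2 over shControl, ran from -0.36 for Cdkn2a to 0.26 for Ccng1, with 4 above 0 and 6 below. Their median was -0.07, and that of all tested genes was 0.01. The median size of the change, sign left aside, was 0.13 for the members and 0.28 for all genes.

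**Figure D1:**
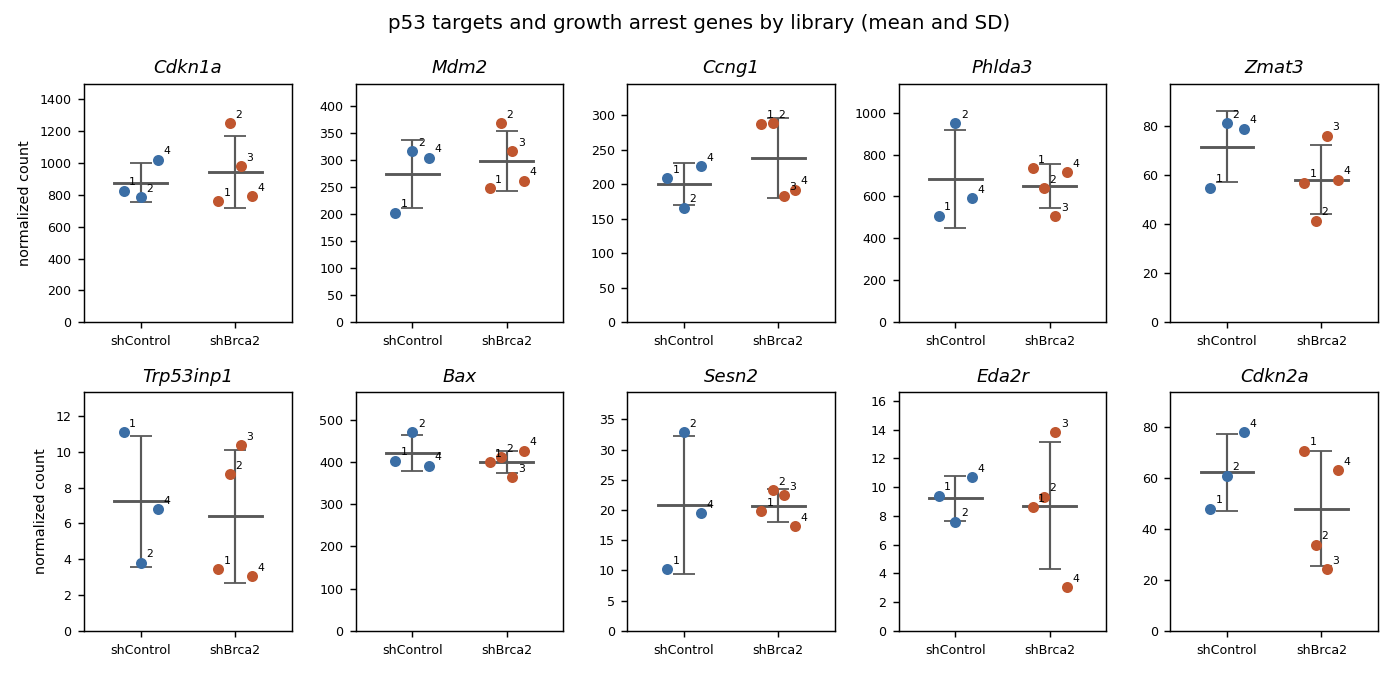
Normalized counts (counts divided by the size factor of the library) of the 10 members in each shControl (blue, n = 3) and shBrca2 (orange, n = 4) library, with replicate numbers beside the points and the group mean and SD in grey; each panel has its own axis from 0. In all 10 panels the points of the groups overlap.

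The arrest genes are described first. Cdkn1a (gene ID 12575, GRCm38 chromosome 17, 29090979 to 29100722) encodes p21, the CDK inhibitor through which p53 halts the cycle. In the order of the replicate numbers, which every list of values below follows, the controls held 827, 786 and 1020 normalized counts and the shBrca2 libraries 759, 1250, 981 and 793. The highest and the lowest library both belonged to shBrca2, so the control range lay inside the shBrca2 range. The means were 878 ± 125 (SD, n = 3) and 946 ± 225 (SD, n = 4). The 95% interval of the log2 fold change, 0.11, was -0.31 to 0.52 (adjusted p by DESeq2 0.88). The direction rested on shBrca2 replicate 2, without which the log2 fold change was -0.06.

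Cdkn2a (chromosome 4, 89274473 to 89294619) had 47.8, 60.7 and 77.8 normalized counts in shControl and 70.6, 33.8, 24.2 and 63 in shBrca2. shBrca2 replicates 2 and 3 lay below all controls, and replicates 1 and 4 lay among them. The log2 fold change of -0.36 had an interval of -1.08 to 0.36 (adjusted p by DESeq2 0.70). The direction was the same in all 12 alternative fits, from -0.60 to -0.16, and none of them called it. Its 2 annotated coding transcripts, for ARF and INK4A, differ in the first exon and share the last, so 3' counts cannot tell them apart.

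Ccng1 (chromosome 11, 40748552 to 40755309), cyclin G1, recruits a phosphatase that acts on Mdm2. It had 208, 166 and 226 normalized counts in shControl and 287, 288, 183 and 192 in shBrca2. shBrca2 replicates 1 and 2 lay above every control, and replicates 3 and 4 lay inside the control range. Its log2 fold change of 0.26 (95% interval -0.20 to 0.71, adjusted p by DESeq2 0.65) was the largest positive value of the members, and it kept its sign in every alternative.

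Mdm2 (chromosome 10, 117688875 to 117710758), the ligase of the feedback loop, had 202, 316 and 304 normalized counts in shControl and 247, 367, 316 and 261 in shBrca2. Only shBrca2 replicate 2 exceeded the controls, and shControl replicate 1 was the lowest of all. The log2 fold change was 0.12 with an interval of -0.32 to 0.57 (adjusted p by DESeq2 0.87), and leaving out shControl replicate 1 turned it to -0.06, leaving out shBrca2 replicate 2 to -0.0012.

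The genes of apoptosis and survival follow. Bax (chromosome 7, 45461695 to 45466903) encodes a pore-forming protein of the mitochondrial outer membrane. It had 403, 471 and 391 normalized counts in shControl and 399, 411, 364 and 427 in shBrca2, a 1.29-fold range over the 7 libraries that was the narrowest of the members. Its log2 fold change of -0.07 had an interval of -0.37 to 0.23 (adjusted p by DESeq2 0.89). Bax was the only member whose interval lay wholly within the fold change threshold of 0.5, which it passed, at -0.51, without shControl replicate 4 and, at -0.52, with the replicate number as a block.

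Phlda3 (chromosome 1, 135766085 to 135769134), which keeps AKT from the membrane, had 508, 949 and 591 normalized counts in shControl and 734, 640, 506 and 716 in shBrca2. shControl replicate 2 stood above all other libraries. The log2 fold change was -0.07 with an interval of -0.54 to 0.40 (adjusted p by DESeq2 0.93), and it was 0.24 without shControl replicate 2, still uncalled. Eda2r (chromosome X, 97333837 to 97377234), a receptor for ectodysplasin A2, was rarely counted, with raw counts of 3 to 16. Its 9.4, 7.59 and 10.7 normalized counts in shControl compared with 8.61, 9.33, 13.8 and 3.05 in shBrca2. The interval of its log2 fold change, -1.28 to 1.0, was too wide to speak to a change of 2-fold.

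The remaining members act in RNA regulation, autophagy and nutrient sensing. Zmat3 (chromosome 3, 32334792 to 32365665), an RNA-binding protein that controls splicing, had 54.7, 81 and 78.8 normalized counts in shControl and 56.8, 41.4, 76 and 57.9 in shBrca2. It had the smallest p of the members (unadjusted p = 0.25, adjusted p by DESeq2 0.63), with a log2 fold change of -0.32 and an interval of -0.88 to 0.23. shBrca2 replicate 2 was the lowest library and shControl replicate 2 the highest, yet shControl replicate 1 lay below 3 of the 4 shBrca2 libraries.

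Sesn2 (chromosome 4, 132492804 to 132510456), a leucine sensor that restrains mTORC1, had 10.3, 32.9 and 19.5 normalized counts in shControl and 19.8, 23.3, 22.5 and 17.3 in shBrca2. All 4 shBrca2 libraries lay between the lowest and the highest control. The group means were 20.9 ± 11.4 (SD, n = 3) and 20.7 ± 2.74 (SD, n = 4), and the interval of the log2 fold change was -0.82 to 0.87. Trp53inp1 (chromosome 4, 11156441 to 11174379), a stress protein linked to autophagy, had raw counts of 3 to 15. Its 11.1, 3.8 and 6.81 normalized counts in shControl and 3.44, 8.74, 10.4 and 3.05 in shBrca2 gave an interval of -1.59 to 1.11, and a difference of the size measured was not detectable at this depth.

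The precision differed among the members. For 7 of them, Cdkn1a, Mdm2, Ccng1, Phlda3, Zmat3, Bax and Sesn2, the 95% interval excluded a 2-fold change in either direction. For the other 3, Trp53inp1, Eda2r and Cdkn2a, it did not. When each library was left out in turn, the exclusion held in all 7 fits for Cdkn1a, Mdm2, Ccng1, Phlda3 and Bax. For Sesn2 it held in 1 of the 7, without shBrca2 replicate 3, and the limits reached -1.23 without shControl replicate 1 and 1.46 without shControl replicate 2. For Zmat3 it was lost without shControl replicate 1, where the lower limit was -1.12, and without shBrca2 replicate 3, where it was -1.05. With the replicate number as a block it was lost for Sesn2 (-1.14 to 1.27) and Zmat3 (-1.23 to 0.33). In 8 of 10 members the change was smaller than its standard error. The p-values set the group difference against the spread between mice injected with the same line. As each group received its own line, other differences between the lines cannot be told apart from Brca2 knockdown. In bulk RNA a smaller share of expressing cells cannot be told from less RNA per cell.

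**Figure D2:**
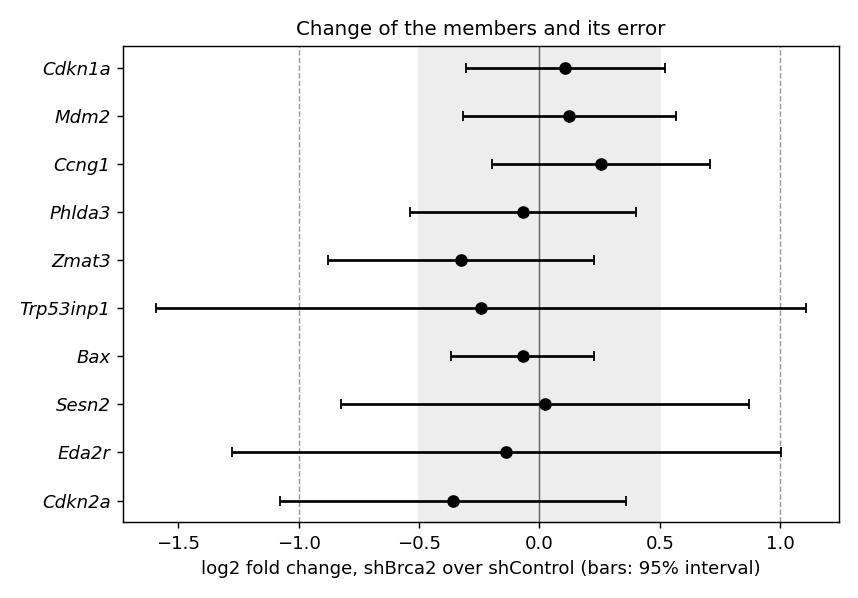
Log2 fold change (shBrca2 over shControl) of each member as a point with its 95% interval as a bar; the grey band spans the threshold of 0.5 on either side of 0 and the dashed lines mark 2-fold changes. Every interval crosses 0, and those of Trp53inp1, Eda2r and Cdkn2a pass a dashed line.

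The members did not share a single order of the libraries. shControl replicate 2 held the highest value of 4 members (Phlda3, Zmat3, Bax and Sesn2), and shBrca2 replicate 2 that of 3 others (Cdkn1a, Mdm2 and Ccng1). The lowest values were spread over 6 of the 7 libraries, with 3 of them in shBrca2 replicate 3. Medians over the members of the log2 deviation from each gene's mean ran from -0.15 in shBrca2 replicate 4 to 0.18 in shBrca2 replicate 2, with controls at -0.10, 0.18 and 0.12. Those of the groups overlapped.

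Cdkn2a varied more between mice than genes of a like level. Its SD of log2(normalized count + 1) within groups was 0.60, against a median of 0.29 over 1298 genes whose mean was at most 25% higher or 20% lower, and 94.3% of those genes had a smaller SD. Bax was on the other side, with an SD of 0.12 against a median of 0.20, and 12.4% of 621 like genes had a smaller one. The other 8 members lay between 60.9% and 84.3%. These are descriptions of 7 libraries and carry no test.

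**Figure D3:**
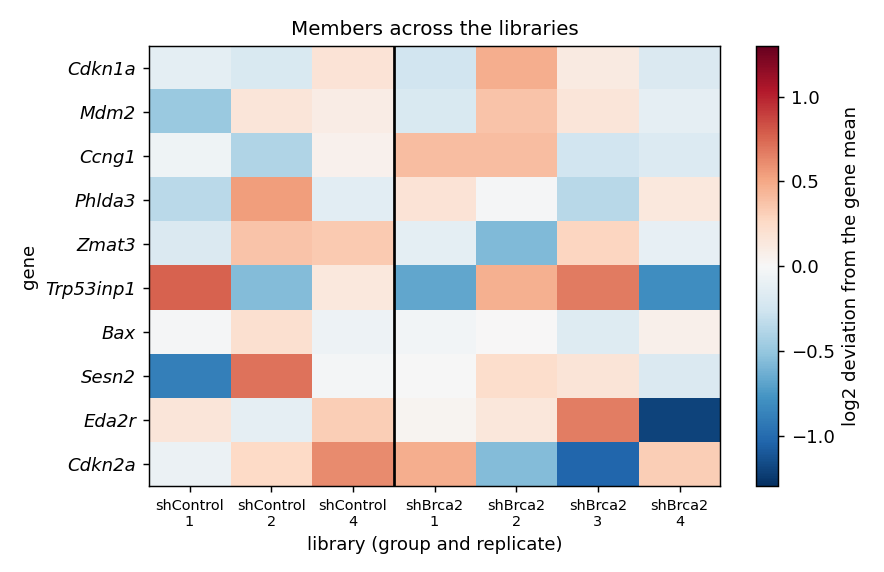
Log2 deviation of each member (rows) from its mean over the 7 libraries (columns, shControl left of the black line), on log2(normalized count + 1); red is above and blue below the mean. No column is red or blue throughout, and the strongest colors are in Eda2r, Cdkn2a and Sesn2.

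By the mean absolute difference of centred log2 values over the 7 libraries, the genes whose pattern was most like that of Zmat3 were Sema4c (0.05), Cerk (0.08) and 2610507B11Rik (0.08), out of 9061 candidates. None of them was called. Zmat3 itself was not called. Centring over all 7 libraries leaves any group difference in the values beside the spread between mice, and the parts of each in this likeness were not separated.

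Other targets of p53 were set beside the members as a list of 30 genes, of which 29 were tested. 1 was called higher and 1 lower, and 27 were not called. The shares over all tested genes, 3.77% higher and 5.27% lower, are those to set beside this and each list below. The median log2 fold change was 0.11, with 17 above 0 and 12 below. The called genes moved in opposite directions. Gdf15 (chromosome 8, 70629393 to 70632470), a secreted stress cytokine, had 73.5, 70.8 and 75.9 normalized counts in shControl and 21.5, 33.2, 22.5 and 24.4 in shBrca2. It fell by 1.5 ± 0.28 (SE) in log2 units, at an adjusted p of 1.1e-05 by DESeq2, and edgeR also called it. All 4 shBrca2 libraries lay below all 3 controls, and it was called in every alternative, with log2 fold changes from -1.69 to -1.42.

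Ddit4 (chromosome 10, 59949675 to 59951770), an inhibitor of mTORC1 that hypoxia and glucocorticoids also induce, rose by 0.72 ± 0.21 (SE) in log2 units, at an adjusted p of 0.018 by DESeq2. It had 716, 1050 and 676 normalized counts in shControl and 1487, 1487, 1010 and 1374 in shBrca2, so shBrca2 replicate 3 overlapped the highest control. It was not called without shControl replicate 1 (adjusted p = 0.15), shControl replicate 4 (0.16) or shBrca2 replicate 1 (0.11). The windows before the starts of Gdf15 and Ddit4 held no p53 decamer, while that of Trp53 held 1, beginning 75 bases before the start. Only 7.13% of all windows held a decamer, so its absence cannot show whether p53 acts on a gene.

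Trp53 itself, which encodes p53, was not called. It had 225, 226 and 203 normalized counts in shControl and 192, 200, 225 and 218 in shBrca2, a log2 fold change of -0.07 with an interval of -0.39 to 0.25 (adjusted p by DESeq2 0.90). Mdm4, the partner of Mdm2 that masks the p53 activation domain, had 67.5, 43 and 72 normalized counts in shControl and 49.1, 39.6, 69.1 and 54.9 in shBrca2 (log2 fold change -0.24, adjusted p by DESeq2 0.77). In the list of p53 and its regulators, 13 of 15 genes were tested and DESeq2 called 0, with 0 at an unadjusted p under 0.05. edgeR called 0 as well. The median log2 fold change was 0.01.

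Among the 17 other CDK inhibitors and growth arrest genes, 0 were called higher, 3 were called lower and 14 were not called. Over all tested genes 5.27% were called lower. The median log2 fold change of the list was -0.11. Cdkn1c (chromosome 7, 143458339 to 143461059), the imprinted CDK inhibitor p57, had 515, 200 and 176 normalized counts in shControl and 75.7, 114, 131 and 70.1 in shBrca2. Every shBrca2 library lay below every control. The log2 fold change was -1.61 ± 0.37 (SE; adjusted p by DESeq2 0.00068), and -0.95 without shControl replicate 1, which held the highest value, still called. The other CDK inhibitors tested, Cdkn1b, Cdkn2b, Cdkn2c and Cdkn2d, were not called, at log2 fold changes of 0.25, -0.39, 0.08 and -0.22.

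Tob1 (chromosome 11, 94209842 to 94215495), an antiproliferative protein that promotes mRNA deadenylation, had 353, 281 and 290 normalized counts in shControl and 142, 230, 192 and 182 in shBrca2 (log2 fold change -0.72 ± 0.21 SE, adjusted p by DESeq2 0.012). The groups did not overlap. It was not called without shControl replicate 1 (adjusted p = 0.16) or shBrca2 replicate 1 (0.13). Gadd45b (chromosome 10, 80930091 to 80932204), a stress-induced activator of p38 and JNK signaling, had 4256, 3879 and 5325 normalized counts in shControl and 2157, 2819, 3420 and 2839 in shBrca2. It fell by 0.68 ± 0.19 (SE) in log2 units, at an adjusted p of 0.011 by DESeq2 and did not pass without shControl replicate 4 (adjusted p = 0.14). Its relatives Gadd45a, a classical p53 target, and Gadd45g were not called, at log2 fold changes of -0.27 and -0.16.

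Partners of Bax in the BCL2 family were read next. Of 13 genes 11 were tested, 0 were called higher and 1 lower, and the median log2 fold change was 0.00. The called gene was Mcl1 (chromosome 3, 95656944 to 95663179), an antiapoptotic member. It had 1022, 696 and 932 normalized counts in shControl and 458, 740, 594 and 523 in shBrca2, a log2 fold change of -0.61 ± 0.21 (SE; adjusted p by DESeq2 0.055). shBrca2 replicate 2 lay above the lowest control. Mcl1 did not pass without shControl replicate 1 (adjusted p = 0.32), shControl replicate 4 (0.20), shBrca2 replicate 1 (0.28) or shBrca2 replicate 4 (0.22). Bak1, the other effector beside Bax, had a log2 fold change of 0.16 and Bcl2l1 of 0.22, both uncalled.

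**Figure D4:**
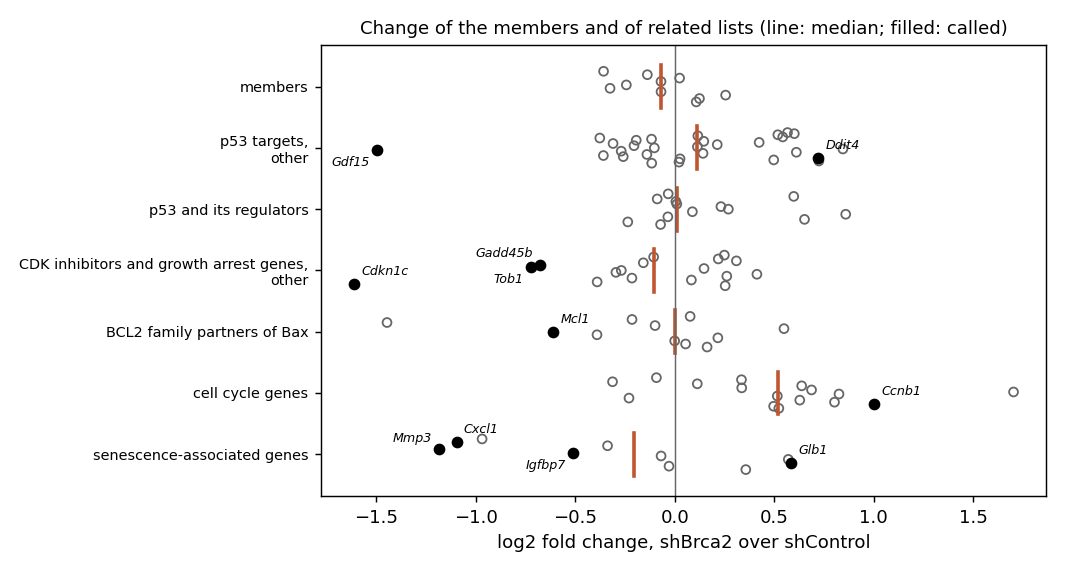
Log2 fold changes (shBrca2 over shControl) of the 10 members and of the tested genes of 6 related lists, 1 point per gene, filled and named where called, with the list median as a vertical line. The members have no filled point and span -0.36 to 0.26, and Gdf15, Cdkn1c, Tob1, Gadd45b, Mcl1, Mmp3, Cxcl1 and Igfbp7 stand to the left while Ddit4, Ccnb1 and Glb1 stand to the right.

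Cell cycle genes, many of which p53 and p21 hold down, had a positive median log2 fold change of 0.52 over 16 genes, with 13 above 0. Of them 1 was called higher and 0 lower. Ccnb1, the mitotic cyclin B1, had 41, 75.9 and 38.9 normalized counts in shControl and 112, 120, 43.2 and 133 in shBrca2 (log2 fold change 1.0 ± 0.37 SE, adjusted p by DESeq2 0.085). shBrca2 replicate 3 lay among the controls. edgeR did not call Ccnb1 (adjusted p = 0.11), and DESeq2 did not when any of shControl replicates 1 and 4 or shBrca2 replicates 1, 2 and 4 was left out (adjusted p from 0.18 to 0.32). Leaving out any other library gave 0 to 2 called. Without shControl replicate 2, the highest control in 13 of the 16, 10 of the 16 were called. Leaving out the highest control raises a fold change by construction. All genes called in this fit numbered 1305, against 1154 with every library. In that fit the members called were still 0, and Cdkn1a had a log2 fold change of 0.03.

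Genes linked to senescence were the last list, and of 10 tested 1 was called higher and 3 lower. Over all tested genes 3.77% were called higher and 5.27% lower. Glb1, whose product is the lysosomal β-galactosidase stained as a senescence marker, had 286, 358 and 387 normalized counts in shControl and 507, 487, 587 and 484 in shBrca2. It rose by 0.58 ± 0.17 (SE) in log2 units, at an adjusted p of 0.015 by DESeq2, with no overlap, and it was not called without shControl replicate 1 (adjusted p = 0.24) or shBrca2 replicate 1 (0.11). Mmp3, a stromal protease, fell by 1.18 ± 0.22 (SE) in log2 units (adjusted p by DESeq2 7.4e-06), the controls averaging 1272 ± 283 (SD, n = 3) against 559 ± 116 normalized counts (SD, n = 4), and it was called in every alternative.

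Cxcl1, a neutrophil chemokine, fell by 1.10 ± 0.37 (SE) in log2 units (adjusted p by DESeq2 0.042). shBrca2 replicate 2, at 5777 normalized counts, lay above shControl replicate 2 at 4697. Cxcl1 was not called by edgeR (adjusted p = 0.11), and of the fits that left out a library it passed only without shBrca2 replicate 2. Igfbp7, a secreted IGF-binding protein, fell by 0.51 ± 0.17 (SE) in log2 units (adjusted p by DESeq2 0.049) and was not called by edgeR (adjusted p = 0.12). It was not called without shControl replicate 1 or 4 or shBrca2 replicate 1, 3 or 4 (log2 fold changes from -0.51 to -0.43). Cdkn2a, the senescence gene among the members, was not called, and neither was Lmnb1, a nuclear lamin lost in senescent cells, at a log2 fold change of 0.36.

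**Figure D5:**
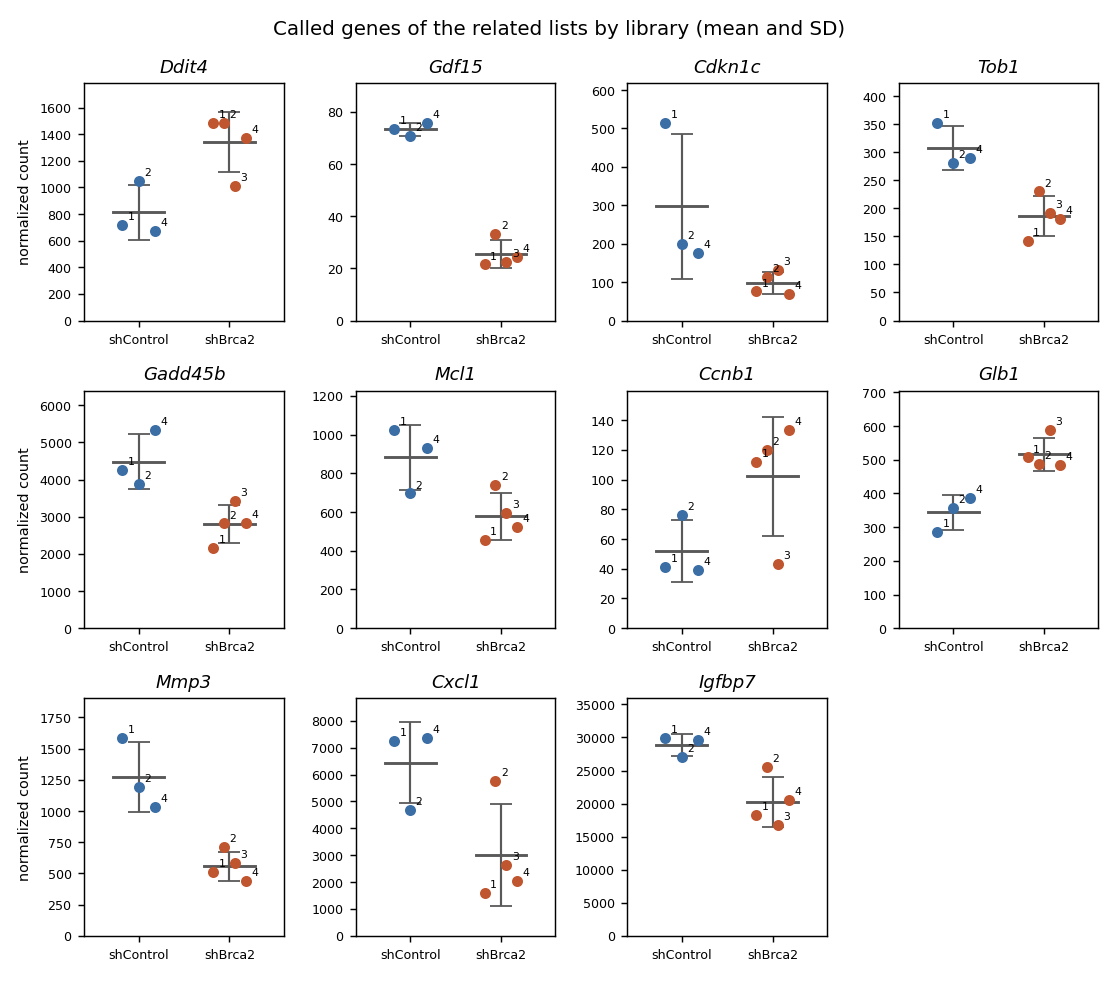
Normalized counts of the 11 called genes of the related lists in each shControl (blue, n = 3) and shBrca2 (orange, n = 4) library, with replicate numbers, group means and SDs; each panel has its own axis from 0. Gdf15, Cdkn1c, Tob1, Gadd45b, Glb1, Mmp3 and Igfbp7 separate the groups, whereas Ddit4, Mcl1, Ccnb1 and Cxcl1 overlap.

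Markers of other cells moved between the groups. Of 10 epithelial markers 8 were listed and 5 were called higher in shBrca2, with summed normalized counts of 422 to 1188 in shControl and 1539 to 2136 in shBrca2. Epcam and Cldn4 were not analysed here, and Cldn7 was at 0 in some shBrca2 libraries. Summed pericyte markers were 712 to 1266 in shControl and 1247 to 1643 in shBrca2, with 2 of 7 called higher, Notch3 and Des. Summed mesothelial markers were 1006 to 3418 and 2599 to 3295. The 1 of them called, higher in shBrca2, was Krt19, which is also among the 5 epithelial markers, and the other 6 were not called.

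The sums of the immune and endothelial markers did not follow most of their genes. Immune markers summed to 259 to 296 in shControl and 354 to 405 in shBrca2, but of the 5 listed 1 was called, Csf1r, with means of 113 and 248, and 3 had log2 fold changes below 0, with a list median of -0.26. Ptprc and Adgre1 were among the immune markers not analysed here. Endothelial markers summed to 76 to 135 and 98.4 to 147, a sum in which Kdr, with means of 65.8 and 93.3, was the largest term. The median of the 5 listed was -1.11, and in 3 of them, Pecam1, Tek and Vwf, every shBrca2 library lay below every control. Pecam1 had raw counts of 6, 14 and 2 in shControl and of 2, 1, 0 and 0 in shBrca2, with an adjusted p by DESeq2 of 0.031, and was not called because its mean normalized count was under 5. Summed acinar markers were 157 to 258 in shControl and 102 to 166 in shBrca2, with 3 called lower and 1 higher. The groups did not overlap in any of the 7 listed, against 17.1% of all genes, and the median log2 fold change was -2.02. The other 6 were lower, and Cela1, with means of 56.9 and 111, was the 1 that rose. Cpa1, Pnlip and Cel had raw counts of at most 18. The part of these shifts in the changes of Gdf15, Cdkn1c and the other called genes was not tested.

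Counts of some genes are uncertain because their exons overlap another annotated gene and the strand setting of the counting was not given. Gm45808, a partner of Bax, and Tmppe, that of Glb1, lie on the same strand, so the strand would not separate them. Among the members the shared part was 12.5% of exon bases in Cdkn1a, 13.6% in Bax, 4.51% in Mdm2 and 2.59% in Ccng1, and 0 in the other 6. In Cdkn1a the partners include Dino, an RNA from the opposite strand. The shared part was 17.3% in Gdf15, 29% in Cdkn1c, 4.21% in Glb1 and 5.68% in Trp53. In Igfbp7 it was 13.7% and covered both annotated 3' ends. In Bax it covered 1 of 7 annotated 3' ends. It covered none in Cdkn1a, Mdm2, Ccng1, Gdf15, Cdkn1c, Glb1 and Trp53.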

How the data were processed

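Bulk RNA-seq of sorted CAFs was analysed for 3 shControl and 4 shBrca2 libraries, 1 mouse each, grouped by their titles. The values the authors deposited are raw counts, 1 row per symbol and 1 column per library, not normalized. The submitters' processing notes name bcl2fastq, cutadapt, STAR 2.4.2a, HTSeq and DESeq2 and the mouse build mm10. The annotation, strand setting and treatment of molecular barcodes were not given in the sources used here, so PCR copies may be counted.

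The counts were fitted over all 12771 genes with DESeq2 1.42.0 (R 4.3.3), by the likelihood ratio test of the group term that the study's methods name, with median-of-ratios size factors and default filtering. A normalized count is the deposited count divided by the size factor of its library. 3 genes received no p, which left 12768 tested. Genes were called at a Benjamini-Hochberg adjusted p under 0.1, an absolute log2 fold change over 0.5 and a mean normalized count over 5. Fold changes were not shrunken, and 95% intervals are the log2 fold change ± 1.96 standard errors, a normal approximation. Total counts ran from 1898679 to 5990579 per library, and this depth left members with few counts with wide intervals. The alternatives were edgeR 4.0.16 (quasi-likelihood test, TMM), the Wald test, TMM factors, a filter keeping genes with 10 counts in 3 libraries, the replicate number as a block, and leaving out each library. The code was tested on simulated counts. No pair of libraries within a group was alike beyond counting noise (lowest mean chi-square per gene 3.01).

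The members and lists were chosen with earlier results of these data known. The text names all members, Trp53 and Mdm4, up to 4 called genes per direction of each related list, and the 3 genes with a mean normalized count of 20 or more whose pattern was most like that of the member with the smallest p. Promoter sequences and gene positions are from RefSeq on GRCm38.p6, the build that mm10 names. Exon overlap was read from GENCODE vM39 on GRCm39.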

Additional observations from a re-analysis of the deposited data

How the results depend on the processing

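The count of 0 called members did not change in any of the 12 alternatives, and neither did that of p53 and its regulators. Over 119 pairs of a member and an alternative, the lowest adjusted p was 0.45 and 13 had the opposite sign, 1 of them under the block: the log2 fold change of Phlda3 was 0.081 with the replicate number as a block. Trp53inp1 was removed by the filter of low counts. The members' ranges when libraries were left out were -0.062 to 0.23 for Cdkn1a, -0.058 to 0.24 for Mdm2, -0.24 to 0.24 for Phlda3, -0.53 to 0.22 for Trp53inp1, -0.12 to 0.013 for Bax, -0.32 to 0.49 for Sesn2 and -0.37 to 0.14 for Eda2r, and Ccng1, Zmat3 and Cdkn2a kept their sign.

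All genes called numbered 1154, 491 with the replicate block, and 615 to 1305 when a library was left out. Other p53 targets called ran from 1 to 4 over those fits and BCL2 partners from 0 to 1, with 0 under the block. Cell cycle genes called were 1 in the reported fit, 0 by edgeR, 2 with the filter and 2 with the block. They were 0 to 2 when a library was left out, save 10 without shControl replicate 2. Senescence-associated genes called were 4 in the reported fit, 2 by edgeR and 1 with the block, and 1 to 6 when a library was left out. Under the block Tob1, Mcl1, Glb1, Cxcl1 and Igfbp7 were not called. The cause of these shifts was not tested. The numbers in the titles were not taken as pairs, since the labels do not say that they are. Deviations of same-numbered libraries from their group means correlated across genes at -0.07, -0.10 and -0.09. Those of differently numbered libraries correlated at -0.10 to 0.19. Such correlations cannot exclude that same-numbered mice were handled together.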

Other observations

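Several related genes had groups that did not overlap or an unadjusted p under 0.05 without being called, and those below were picked after their values were seen. Over all tested genes, 17.1% had groups that did not overlap and 17.7% an unadjusted p under 0.05 by DESeq2. With called genes included, these numbered 2 and 5 of 29 other p53 targets. They were 2 and 2 of 11 BCL2 partners, and 1 and 5 of 16 cell cycle genes. Of the 17 other CDK inhibitors and growth arrest genes they were 4 and 3, and of 10 senescence-associated genes 3 and 5. Fdxr, a mitochondrial reductase and p53 target, had 68.3, 74.6 and 71 normalized counts in shControl and 115, 80.4, 140 and 107 in shBrca2, so every shBrca2 library lay above every control (log2 fold change 0.61, adjusted p by DESeq2 0.12). Bbc3, which encodes the proapoptotic protein PUMA, had a log2 fold change of 0.72 (adjusted p by DESeq2 0.25), with shBrca2 replicate 2 among the controls. Epha2, a receptor tyrosine kinase, had 0.57 (adjusted p by DESeq2 0.23). In the BCL2 family the groups did not overlap for Bcl2l2, at a log2 fold change of -0.39 (adjusted p by DESeq2 0.23), and for Bid, at 0.55 (adjusted p by DESeq2 0.45). Ccnb2, the mitotic cyclin B2, had a log2 fold change of 0.80 (adjusted p by DESeq2 0.11). None of these passed the correction over all genes.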
